A study of Mus musculus with 8 samples.

Results

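The genes described here are the EGR and NR4A transcription factors induced by the T cell receptor (TCR), together with the NAB cofactors of the EGR factors. They were taken by gene name from the deposited gene tables and comprise 8 of the 38215 genes listed: Egr1, Egr2 and Egr3, Nr4a1, Nr4a2 and Nr4a3, and Nab1 and Nab2. All 8 passed the expression filter and were among the 13397 genes tested. Their expression was read from 8 RNAseq libraries of regulatory T cells (Treg), the suppressive T cells that express FoxP3, with 4 libraries from bone marrow (BM-Treg) and 4 from spleen (SP-Treg). The donors were untreated B6.FoxP3-GFP mice aged 12 weeks, in which a green fluorescent protein marks the cells that express FoxP3 for sorting, and the labels give the genotype of every library as C57Bl/6. BM-Treg replicates 1 to 3 came from females of batch 1, and BM-Treg replicate 4 and all SP-Treg from males of batch 3, as labelled. Tissue was therefore largely confounded with batch and sex, and the tissues share a batch only through BM-Treg replicate 4. The sources used here do not state whether a library pooled several animals, so that p-values measure the spread between these libraries.

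TCR engagement activates ERK and calcium signaling, and the EGR zinc finger factors and the NR4A orphan nuclear receptors are among the first genes transcribed in response. EGR2 and EGR3 are known to restrain T cell activation, and NR4A receptors are known to maintain FoxP3 expression and Treg development. NAB1 and NAB2 bind EGR factors and repress the genes that these factors would otherwise activate, and Nab2 is itself an EGR target.

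Total expected counts were between 12427136 and 21921252 per library. Between the tissues, 1172 of 13397 genes (8.75%) differed at an adjusted p threshold of 0.05 in edgeR's quasi-likelihood test, 673 lower and 499 higher in BM-Treg. By limma-trend on log2(FPKM + 1), with another filter, 153 were lower and 260 higher of 18174 genes tested. The Treg identity of the sorted cells was examined first. The summed expression of 7 Treg and T cell genes, with Foxp3, Il2ra and Cd3e among them, was 7569 to 9255 normalized counts (CPM, reads scaled to a common library size) in BM-Treg and 8401 to 9109 CPM in SP-Treg. Within this sum, Il2ra was at 801 ± 94.8 CPM in BM-Treg against 1214 ± 384 in SP-Treg (edgeR adjusted p = 0.0803). Foxp3 was at 1755 ± 255 against 1446 ± 188 CPM (edgeR adjusted p = 0.241; SD, n = 4 each). SP-Treg replicate 1 differed more from the other SP-Treg (chi-square of 52.7 to 91.7 per degree of freedom over expressed genes) than these did from each other (19.4 to 26.0). BM-Treg replicate 4 differed more from the other BM-Treg (39.3 to 44.5) than these did from each other (14.4 to 31.4). Values without either library are given where a call or a value rests on them.

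All 3 EGR genes were downregulated in BM-Treg, whereas none of the 3 NR4A genes and neither of the NAB genes passed the test over all genes. Thus 3 of the 8 members were called lower and 0 called higher, where 5.02% of all genes tested were called lower. Every BM-Treg library lay below every SP-Treg library for the same 3 genes, a separation found in 7.67% of all genes tested. The median log2 fold change was -1.02 over the EGR genes, -0.14 over the NR4A genes and -0.25 over the NAB genes, against -0.01 over all genes tested. At an unadjusted p below 0.05, 1 NR4A gene (Nr4a3) and 1 NAB gene (Nab1) were lower in edgeR, and DESeq2 called both of these genes in addition to the EGR genes. With batch as a term, only Egr2 of the 8 members was called by edgeR, where 1.93% of all genes were called. The difference in fold change between the EGR and the NR4A genes was not tested.

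**Figure D1:**
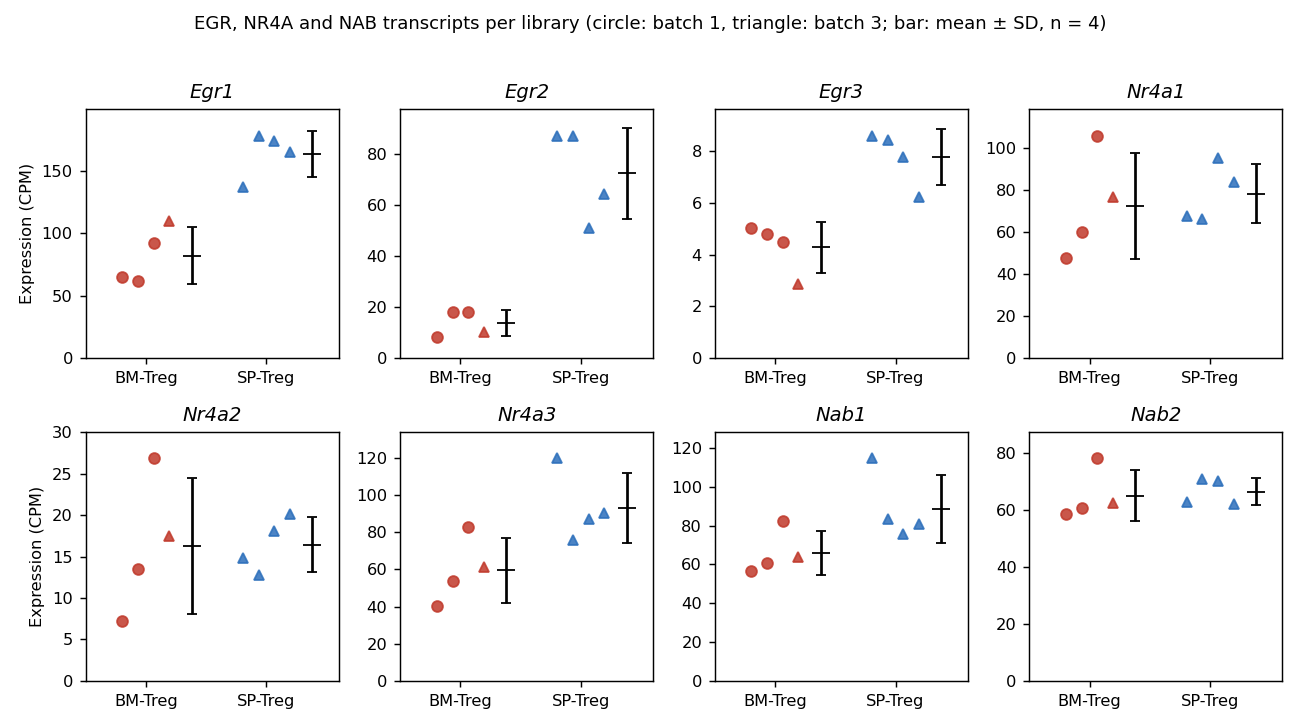
Expression (CPM, vertical axis from 0) of each member in the 4 BM-Treg (red) and 4 SP-Treg (blue) libraries, with circles for batch 1, triangles for batch 3, and bars for the mean and SD. The tissues do not overlap for Egr1, Egr2 and Egr3 and overlap for the other 5 members.

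Egr2 showed the largest difference of the members. Egr2 (ENSMUSG00000037868) lies on chromosome 10 from 67535475 to 67542188 on the plus strand of GRCm38 and encodes a zinc finger factor that limits T cell activation. It was expressed at 8.28, 18.1, 18.3 and 10.2 CPM in BM-Treg replicates 1 to 4. The 4 SP-Treg replicates, in the same order, were at 87.2, 87.0, 51.0 and 64.2 CPM. The lowest SP-Treg library thus lay well above the highest BM-Treg library, and the group means were 13.7 ± 5.22 and 72.3 ± 17.8 CPM (SD, n = 4 each). On the log2 scale Egr2 changed by -2.41 (edgeR adjusted p = 0.00131, standard error (SE) 0.28), or 5.31-fold higher expression in SP-Treg. By p, it ranked 89 of the 13397 genes tested.

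Egr2 was called under all 17 alternative settings that gave a test. With each library left out in turn, its log2 fold change was between -2.57 and -2.20. With batch as a term it was -2.84 (edgeR adjusted p = 0.0392), and within batch 3, where BM-Treg replicate 4 was the only BM-Treg library and no test could be made, it was -2.82.

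Egr2 has alternative start sites, which the transcript table resolves in part. Of its 7 listed transcripts, 2 start upstream and 5 start at or downstream of the proximal start in GENCODE M21. The share of Egr2 expected counts given to the upstream starts was 19.2%, 14.7%, 30.8% and 21.6% in BM-Treg replicates 1 to 4, and 14.5%, 24.4%, 24.6% and 19.0% in SP-Treg replicates 1 to 4, so that the tissues overlapped. Transcripts of both kinds of start were lower in BM-Treg in level. Upstream starts gave 3.02 ± 1.79 CPM in BM-Treg against 14.7 ± 4.41 in SP-Treg, and proximal starts 10.7 ± 4.07 against 57.7 ± 15.8 CPM (SD, n = 4 each), without overlap between tissues in either case. These shares are model estimates, since the transcripts overlap and only single-end reads were sequenced.

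The promoter of the leading transcript, Egr2-201, is shown because its transcript carries most Egr2 counts and because it holds a CArG box, the binding sequence of serum response factor (SRF), through which ERK and actin signaling reach early genes. Windows of 300 bases, from 250 before to 50 after a RefSeq start, were given for 6 of the members, and none for Egr1 or Egr3 was used here. The sequence is from RefSeq (GRCm38.p6), chr10:67537619-67537918, plus strand, with the CArG box in capitals.
Egr2: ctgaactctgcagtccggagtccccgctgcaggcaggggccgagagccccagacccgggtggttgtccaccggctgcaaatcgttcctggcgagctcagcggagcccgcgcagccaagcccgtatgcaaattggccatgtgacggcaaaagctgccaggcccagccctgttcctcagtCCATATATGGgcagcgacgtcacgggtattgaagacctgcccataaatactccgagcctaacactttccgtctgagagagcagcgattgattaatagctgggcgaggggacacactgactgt
The box begins at position -72 from the start. Of the 5 Egr2 windows, which overlap in part, 4 held a CArG box. The box shown is the same site in the windows that start at 67537619, 67537620 and 67537680. The window that starts at 67537316 held another. No window of the other 5 members with a window held one. By gene, 1 of these 6 members held a box, where 1.81% of all genes with a window and 1.63% of all 32851 windows did. On both strands, the CRE (TGACGTCA), the AP-1 sequence (TGANTCA) and the NR4A monomer sequence NBRE (AAAGGTCA) were found in 0 of the windows of these 6 members. They are held by 1.79%, 7.81% and 1.51% of all windows. A match describes the letters of a window and no bound factor.

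Egr1 (ENSMUSG00000038418, chromosome 18, 34859823 to 34864984, plus strand), the immediate early member that responds to most growth and antigen signals, was also lower in every BM-Treg library than in every SP-Treg library. It reached 64.7, 61.8, 91.7 and 109.5 CPM in BM-Treg replicates 1 to 4. SP-Treg replicates 1 to 4 reached 137, 178, 174 and 165 CPM. The BM-Treg library of batch 3 was the highest of the BM-Treg and still below every SP-Treg library. Mean Egr1 expression was 81.9 ± 22.8 against 163 ± 18.5 CPM (SD, n = 4 each), giving a log2 fold change of -1.02 (edgeR adjusted p = 0.00343, SE 0.17).

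Egr1 was still called by limma-trend on log2(FPKM + 1), and leaving out any of the 8 libraries did not remove its call in edgeR (log2 fold change -1.19 to -0.90, adjusted p up to 0.0138). Once batch was added to the model Egr1 was no longer called, at -0.59 on the log2 scale (edgeR adjusted p = 0.172), and batch 3 alone gave -0.58.

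Egr3 (ENSMUSG00000033730, chromosome 14, 70077445 to 70080157, plus strand), which encodes the EGR factor that acts together with EGR2 in T cells, had the lowest FPKM of the members. It was at 5.03, 4.80, 4.50 and 2.85 CPM in BM-Treg replicates 1 to 4, from 34 to 103 expected counts. In SP-Treg replicates 1 to 4 it was at 8.60, 8.45, 7.77 and 6.23 CPM. The tissues did not overlap, but SP-Treg replicate 4 lay close to the highest BM-Treg library. Mean levels of 4.29 ± 0.99 against 7.77 ± 1.08 CPM (SD, n = 4 each) gave a log2 fold change of -0.86 (edgeR adjusted p = 0.0314, SE 0.23).

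When single libraries were left out, Egr3 was no longer called in 6 of 8 fits, and its edgeR adjusted p rose to as much as 0.0819 (without SP-Treg replicate 1). The call held only without BM-Treg replicate 1 and without SP-Treg replicate 4. It was also lost by limma-trend on log2(FPKM + 1) (adjusted p = 0.107) and with batch as a term (log2 fold change -1.46, edgeR adjusted p = 0.0581). Within batch 3 the log2 fold change was -1.44, larger than over all libraries. The remaining family gene, Egr4, was listed at no more than 2 expected counts in any library and was not tested.

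Since genes can be compared in level only per length, the composition of the EGR family was taken from the authors' FPKM. Egr2 made up 25.3%, 46.1%, 38.7% and 22.1% of the summed FPKM of the EGR genes in BM-Treg replicates 1 to 4. Its part was 62.2%, 58.4%, 49.0% and 53.3% in SP-Treg replicates 1 to 4, above every BM-Treg library. Egr1 made up 45.8% to 73.5% in BM-Treg and 33.1% to 46.3% in SP-Treg, and Egr3 made up 4.34% to 11.3% and 3.69% to 4.69%, with overlap in both. By FPKM, the EGR transcripts of BM-Treg were thus led by Egr1 in 3 of 4 libraries, and those of SP-Treg by Egr2 in 4 of 4. The FPKM of Egr2 rest on an effective length of 932 nt, averaged over libraries, and those of Egr1 on 3042 nt. The Egr2 length is short since part of its counts was given to short transcripts. In SP-Treg, Egr2-201 held 59.5% of the Egr2 expected counts on average but 19.5% of the summed transcript FPKM. In CPM, which are not divided by length, Egr1 lay above Egr2 in every library. The lead of Egr2 in SP-Treg thus holds at these lengths and not in CPM.

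Unlike the EGR genes, Nr4a1 did not separate the tissues. Nr4a1 (ENSMUSG00000023034, chromosome 15, 101266846 to 101274792, plus strand) encodes NUR77, an orphan receptor widely used as a reporter of recent TCR signaling. It was at 47.5, 59.9, 106 and 76.4 CPM in BM-Treg replicates 1 to 4. Values in SP-Treg replicates 1 to 4 were 67.7, 66.3, 95.4 and 83.7 CPM. BM-Treg held both the lowest and the highest of the 8 libraries. Mean Nr4a1 levels were 72.4 ± 25.3 against 78.3 ± 13.9 CPM (SD, n = 4 each), for a log2 fold change of -0.14 (edgeR adjusted p = 0.765, SE 0.22).

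Nr4a2 (ENSMUSG00000026826, chromosome 2, 57106830 to 57124003, minus strand) encodes NURR1 and had the lowest FPKM of the NR4A genes. It was at 7.20, 13.5, 26.8 and 17.4 CPM in BM-Treg replicates 1 to 4. In SP-Treg replicates 1 to 4 it was at 14.8, 12.8, 18.02 and 20.2 CPM, within the range of BM-Treg. Group means were 16.2 ± 8.23 and 16.4 ± 3.28 CPM (SD, n = 4 each), a log2 difference of -0.04 (edgeR adjusted p = 0.954, SE 0.33). The sign of the Nr4a2 estimate changed with the library left out, between -0.39 and 0.23, and neither it nor Nr4a1 was called under any of 17 alternatives.

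Nr4a3 (ENSMUSG00000028341, chromosome 4, 48045153 to 48086447, plus strand), which encodes NOR1, was lower in BM-Treg by counts without passing the test. It was at 40.2, 53.6, 82.5 and 61.2 CPM in BM-Treg replicates 1 to 4. SP-Treg replicates 1 to 4 were at 119.7, 75.5, 87.3 and 90.2 CPM. BM-Treg replicate 3 was the only BM-Treg library that reached the SP-Treg. With means of 59.4 ± 17.7 against 93.2 ± 18.8 CPM (SD, n = 4 each), Nr4a3 had a log2 fold change of -0.67 (edgeR adjusted p = 0.0579, SE 0.20).

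Whether Nr4a3 was called depended on the tool, the library and the unit. It was called by DESeq2 (adjusted p = 0.00961, 12.7% of all genes called), by limma-voom (adjusted p = 0.0483), and by edgeR without BM-Treg replicate 3 (log2 fold change -0.86, adjusted p = 0.0111) or without SP-Treg replicate 2 (adjusted p = 0.0491). Leaving out SP-Treg replicate 1 gave -0.51 on the log2 scale (edgeR adjusted p = 0.153), and batch 3 alone gave -0.60. By FPKM the tissues overlapped, at 39.7 ± 13.2 against 38.4 ± 4.04 (SD, n = 4 each) and a log2 fold change of -0.01 (limma-trend on log2(FPKM + 1), adjusted p = 0.992).

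FPKM are divided by an effective length, which follows from how the expected counts are spread over the 4 annotated transcripts of Nr4a3, and this spread differed between the libraries. The transcript with the largest share, Nr4a3-201 (48045153 to 48086445), spans the gene and codes for the receptor. It held 48.1%, 49.2%, 44.3% and 41.1% of the Nr4a3 expected counts in BM-Treg replicates 1 to 4. The corresponding shares in SP-Treg replicates 1 to 4 were 78.2%, 62.6%, 50.5% and 68.0%, above every BM-Treg library. Its mean share was lower in BM-Treg by 19.2 percentage points (two-sided exact permutation p = 0.0286, which is the lowest possible with 4 libraries per tissue, or 0.0857 after adjustment over 6 members with several transcripts). Nr4a3-204 (48045231 to 48050165) is a processed transcript, annotated without a coding sequence, that covers only the 5′ part of the gene. Its share was 41.0% ± 4.99 in BM-Treg and 23.2% ± 9.08 in SP-Treg (SD, n = 4 each).

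In level, the coding transcript Nr4a3-201 was at 19.3 to 36.5 CPM in BM-Treg and at 44.1 to 93.5 CPM in SP-Treg, without overlap and with a 2.29-fold higher mean in SP-Treg. The processed transcript Nr4a3-204 was at 24.8 ± 9.22 CPM in BM-Treg against 20.4 ± 5.73 in SP-Treg (SD, n = 4 each), with overlap. The effective length behind the FPKM of Nr4a3 was accordingly 1546 nt on average in BM-Treg and 2426 nt in SP-Treg. SP-Treg replicate 1, which stood apart from the other SP-Treg, had the highest share of Nr4a3-201, at 93.5 CPM and an effective length of 3377 nt. SP-Treg replicates 2 to 4 were at 47.3, 44.1 and 61.3 CPM, with effective lengths of 2042, 1848 and 2437 nt. The mean share of SP-Treg, the 2.29-fold ratio and the mean length of 2426 nt thus rest in part on SP-Treg replicate 1. Read coverage along the gene was not analysed here.

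**Figure D2:**
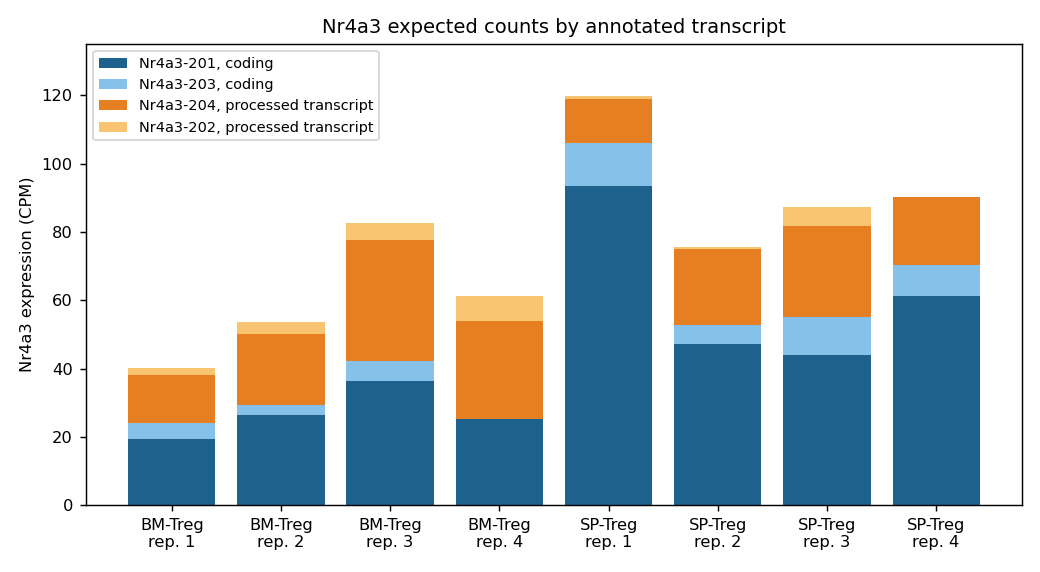
Nr4a3 expression (CPM, stacked bars from 0) in each of the 8 libraries, divided by the share of expected counts given to the 4 annotated transcripts. The dark blue coding transcript reaches 19.3 to 36.5 CPM in BM-Treg and 44.1 to 93.5 CPM in SP-Treg, whereas the orange processed transcript overlaps between tissues.

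Among the other members with several transcripts, the leading transcript of Egr1, Egr1-202, held 89.8% ± 1.89 of the counts in BM-Treg and 93.8% ± 0.54 in SP-Treg (SD, n = 4 each), without overlap (exact permutation p = 0.0286, adjusted 0.0857). From SP-Treg to BM-Treg this share changed by -4.02 percentage points. The leading transcripts of Egr2, Nr4a2, Nab1 and Nab2 overlapped in share between tissues, with exact permutation p between 0.143 and 0.943. Egr3 and Nr4a1 were listed with a single transcript each. In shares of FPKM instead of expected counts, the same 2 of 6 genes did not overlap.

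Within BM-Treg, the NR4A genes were high and low in the same libraries, and their proportions by FPKM overlapped between tissues. Nr4a1 made up 36.6% to 41.8% of the summed NR4A FPKM in BM-Treg and 38.1% to 42.7% in SP-Treg. For Nr4a2 these ranges were 8.96% to 13.7% and 9.24% to 12.1%, and for Nr4a3 47.8% to 52.4% and 45.2% to 50.9%. These FPKM of Nr4a3 rest on effective lengths that differed between tissues, at 1546 nt in BM-Treg and 2426 nt in SP-Treg. In CPM, mean Nr4a3 was 59.4 in BM-Treg and 93.2 in SP-Treg. Mean Nr4a1 was 72.4 and 78.3 CPM, and mean Nr4a2 16.2 and 16.4 CPM. Proportions in CPM were not compared, and the overlap is shown for FPKM only. The FPKM of each NR4A gene spanned a wider range in BM-Treg than in SP-Treg. In CPM this held for Nr4a1 and Nr4a2, but the SD of Nr4a3 was 17.7 in BM-Treg and 18.8 in SP-Treg. BM-Treg replicate 3 was the highest BM-Treg library for all NR4A and NAB genes and for Egr2, 6 of the 8 members, and BM-Treg replicate 1 was the lowest for the same 6. The coefficient of variation was larger in BM-Treg than in SP-Treg for 7 of the 8 members, Nab1 being the exception. BM-Treg libraries came from different batches, and the part of batch in this spread was not tested.

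Neither NAB gene passed the test, with Nab1 near the threshold and Nab2 far from it. Nab1 (ENSMUSG00000002881, chromosome 1, 52457294 to 52500679, minus strand) was at 56.7, 60.7, 82.3 and 63.9 CPM in BM-Treg replicates 1 to 4. Nab1 reached 114.6, 83.5, 75.8 and 81.0 CPM in SP-Treg replicates 1 to 4. Only BM-Treg replicate 3 reached into the SP-Treg range, and SP-Treg replicate 1 was far above the others. Mean Nab1 levels were 65.9 ± 11.3 against 88.7 ± 17.5 CPM (SD, n = 4 each), for a log2 fold change of -0.45 (edgeR adjusted p = 0.0620, SE 0.14). Without BM-Treg replicate 3 Nab1 was called (log2 fold change -0.56, edgeR adjusted p = 0.0339), as it was by DESeq2 (adjusted p = 0.0418) and without SP-Treg replicate 3 (edgeR adjusted p = 0.0471). Leaving out SP-Treg replicate 1 brought the log2 fold change to -0.29 (edgeR adjusted p = 0.220).

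Nab2 (ENSMUSG00000025402, chromosome 10, 127660918 to 127668568, minus strand) was the steadiest member. It was at 58.8, 60.8, 78.2 and 62.6 CPM in BM-Treg replicates 1 to 4. In SP-Treg replicates 1 to 4 it was at 62.9, 70.9, 70.1 and 62.1 CPM, within the range of BM-Treg. Its means, 65.1 ± 8.88 against 66.5 ± 4.64 CPM (SD, n = 4 each), gave a log2 fold change of -0.05 (edgeR adjusted p = 0.83, SE 0.11). Its gene overlaps the 3′ end of Stat6 by 40 nt, Tmem194 by 1668 nt and Gm16229 by 1646 nt, all on the opposite strand. Whether counting used strand is not given in the sources used here, so that counts of Nab2 may include reads of these genes. No other member overlapped a listed gene.

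Matches to the EGR binding sequence (GCGTGGGCG or GCGGGGGCG, either strand) are shown for the promoters that held any, Nab1 and Nr4a1, because these genes did not pass the test while the EGR genes did. They were found in 2 of the 6 members with a window, against 3.93% of all 27025 genes with a window (3.47% of all windows). The sequences are from RefSeq (GRCm38.p6), chr1:52500399-52500698 on the minus strand for Nab1 and chr15:101266596-101266895 on the plus strand for Nr4a1, 5′ to 3′ along the gene, with the matches in capitals.
Nab1: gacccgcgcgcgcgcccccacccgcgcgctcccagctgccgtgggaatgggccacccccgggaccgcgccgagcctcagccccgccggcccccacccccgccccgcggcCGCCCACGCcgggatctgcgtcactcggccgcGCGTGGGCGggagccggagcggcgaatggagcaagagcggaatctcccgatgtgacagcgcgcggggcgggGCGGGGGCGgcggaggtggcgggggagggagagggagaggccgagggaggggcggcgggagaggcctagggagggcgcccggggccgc
Nr4a1: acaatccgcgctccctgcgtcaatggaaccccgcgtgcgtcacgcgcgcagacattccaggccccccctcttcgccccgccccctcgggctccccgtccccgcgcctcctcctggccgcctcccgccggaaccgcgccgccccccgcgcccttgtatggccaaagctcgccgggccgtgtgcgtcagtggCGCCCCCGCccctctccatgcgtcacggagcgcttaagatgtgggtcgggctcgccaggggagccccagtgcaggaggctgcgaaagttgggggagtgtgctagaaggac
Nab1 held 3 matches, beginning at positions -141, -109 and -38 from the start, and Nr4a1 held 1, beginning at -60. The promoter of Nab2 held none.

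Per length, the order of the members differed between tissues. In BM-Treg, Nr4a3 came first with 39.7 ± 13.2 FPKM, followed by Nr4a1 (30.6 ± 10.3), Nab2 (27.7 ± 3.76), Egr1 (27.04 ± 6.56) and Nab1 (23.7 ± 2.12), each overlapping the next. Egr2 (15.4 ± 6.75), Nr4a2 (9.13 ± 4.91) and Egr3 (3.28 ± 0.86) followed, with Egr2 below every Nab1 value, Nr4a2 overlapping Egr2, and Egr3 below every Nr4a2 value (SD, n = 4 each). In SP-Treg, Egr2 came first with 75.3 ± 16.5 FPKM and Egr1 second with 52.9 ± 3.20, without overlap between them or with the next member. Nr4a3 (38.4 ± 4.04), Nab1 (32.6 ± 11.3), Nr4a1 (31.99 ± 4.72) and Nab2 (27.1 ± 1.37) overlapped in sequence, and Nr4a2 (8.40 ± 1.34) and Egr3 (5.72 ± 0.97) lay apart below them (SD, n = 4 each). Nab1 reached 49.3 FPKM in SP-Treg replicate 1, which lay above Egr1 in that library (48.5). By mean FPKM, Egr2 and Egr1 stood above the NR4A and NAB genes in SP-Treg but not in BM-Treg. The first place of Egr2 in SP-Treg rests on its effective length of 932 nt, since its CPM lay below those of Egr1 in every library. With CPM divided by a single length per gene, 54 of 56 pairs of members kept their order. That length was the mean of the lengths behind the same FPKM, so that the order was not tested against other lengths.

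**Figure D3:**
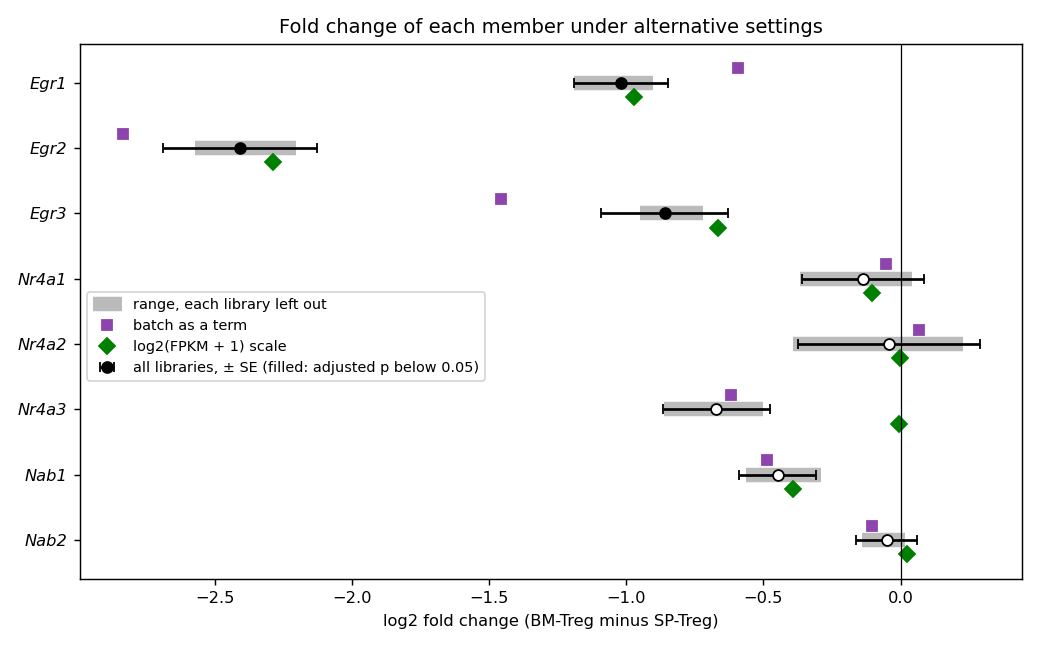
Log2 fold change (BM-Treg minus SP-Treg, horizontal axis) of each member over all libraries with its standard error, the range with each library left out in turn (grey), with batch as a term (squares) and on the log2(FPKM + 1) scale (diamonds). Egr2 stays below -2 throughout, Egr1 moves to -0.59 with batch as a term, and Nr4a3 moves to -0.01 on the FPKM scale.

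Genes around these factors were examined in lists chosen from textbook knowledge, with earlier results of these data known. The paper already reports some listed genes, such as Irf4 and Lag3, as downregulated in BM-Treg. The shares called in the lists are therefore not independent of these data. Of 16 regulators upstream of the EGR and NR4A genes, all tested, 1 was lower and 2 were higher in BM-Treg (median log2 fold change 0.00), or 18.8% called against 8.75% of all genes tested. Elk4, a ternary complex factor that binds with SRF at CArG boxes, was at 262 ± 15.0 CPM in BM-Treg against 353 ± 28.9 in SP-Treg (log2 fold change -0.44, edgeR adjusted p = 0.0104). Mkl1, a coactivator of SRF, was higher in BM-Treg at 173 ± 12.7 against 118 ± 4.89 CPM (log2 fold change 0.54, edgeR adjusted p = 0.00282). Mef2d, a calcium-regulated activator of Nr4a1 in T cells, was also higher, at 483 ± 34.7 against 326 ± 30.4 CPM (log2 fold change 0.55, edgeR adjusted p = 0.00407; SD, n = 4 each). Srf itself was at 59.7 ± 8.26 and 56.5 ± 5.86 CPM (edgeR adjusted p = 0.805).

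Of 13 tested genes tied to EGR2 and EGR3 in T cells, such as Cblb and Dgka, which restrain TCR signaling, 0 were called by edgeR, 4 had an unadjusted p below 0.05 and 2 were called by DESeq2. The median log2 fold change of these genes was -0.01, with 7 of the 13 below 0. Single genes went either way and were named after their values had been seen. Lag3 was at 24.0 ± 19.1 CPM in BM-Treg against 56.6 ± 7.79 in SP-Treg (log2 fold change -1.25, edgeR adjusted p = 0.197). Tnfrsf9 was at -0.65 on the log2 scale (edgeR adjusted p = 0.130), whereas Cblb was at 0.27 (edgeR adjusted p = 0.0957). Of 4 other tested EGR cofactor genes, 0 were called by edgeR or DESeq2, and 0 had an unadjusted p below 0.05. Of the RXR partners of NR4A receptors, 2 were tested and 0 were called by edgeR or DESeq2 (1 with an unadjusted p below 0.05).

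Of 12 genes tied to NR4A factors in T cells, 2 were lower in BM-Treg and 0 were higher (16.7% called, against 8.75% of all genes in either direction). Ccr7, which guides T cells into lymphoid tissue, was at 18.04 ± 2.09 CPM in BM-Treg against 43.5 ± 18.4 in SP-Treg (log2 fold change -1.30, edgeR adjusted p = 0.0163). Batf, an AP-1 factor of effector Treg, was at 123 ± 29.8 and 179 ± 25.9 CPM (log2 fold change -0.56, edgeR adjusted p = 0.0483; SD, n = 4 each). Foxp3 and Ikzf2, which NR4A receptors are known to sustain, had log2 fold changes of 0.26 and 0.02 (edgeR adjusted p = 0.241 and 0.945).

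Of 23 tested TCR-induced early genes outside the EGR and NR4A families, 8 were lower and 1 was higher in BM-Treg (median log2 fold change -0.23), where 8.75% of all genes were called in either direction. Spred1, an inhibitor of Ras and ERK signaling, was at 5.63 ± 1.03 CPM in BM-Treg against 16.5 ± 2.87 in SP-Treg (log2 fold change -1.57, edgeR adjusted p = 0.000361). Irf4, which is induced in proportion to TCR signal strength, had a log2 fold change of -1.14 (edgeR adjusted p = 0.000392). Pim1, a kinase induced by TCR and cytokine signals, was the gene called higher, at 222 ± 31.4 against 131 ± 26.9 CPM (log2 fold change 0.75, edgeR adjusted p = 0.00451; SD, n = 4 each). Cd69 and Cd5, both raised by TCR signaling, had log2 fold changes of 0.03 and 0.02 (edgeR adjusted p = 0.922 and 0.926) and were named after their values had been seen.

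Most of the called immediate early genes that also respond to tissue handling were higher in BM-Treg. Of 12 tested, 5 were higher and 1 was lower in BM-Treg (50% called, against 8.75% of all genes tested, with a median log2 fold change of 0.59), and their summed expression was 2001 to 3315 CPM in BM-Treg and 1296 to 1853 CPM in SP-Treg. Junb and Klf6 were higher by 1.31 and 0.55 on the log2 scale (edgeR adjusted p = 0.0216 and 0.0131), and Ier5 was lower, at -0.61 (edgeR adjusted p = 0.0446). Of 8 heat shock genes, 4 were lower and 0 were higher in BM-Treg, where 5.02% of all genes were called lower, with a median log2 fold change of -1.31. Their sum was 1791 to 2816 CPM in BM-Treg and 3708 to 6522 CPM in SP-Treg. Hspe1 and Hspa8, a mitochondrial and a cytosolic chaperone, had log2 fold changes of -1.18 and -0.85 (edgeR adjusted p = 0.000185 and 0.00271). The EGR genes were called in the direction of the 4 called heat shock genes and against 5 of the 6 called handling genes, and the part of cell handling in the EGR result was not tested. Over all lists, 16 genes were lower and 8 were higher of 90 tested. With batch as a term 7 were called, where 1.93% of all genes were called.

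**Figure D4:**
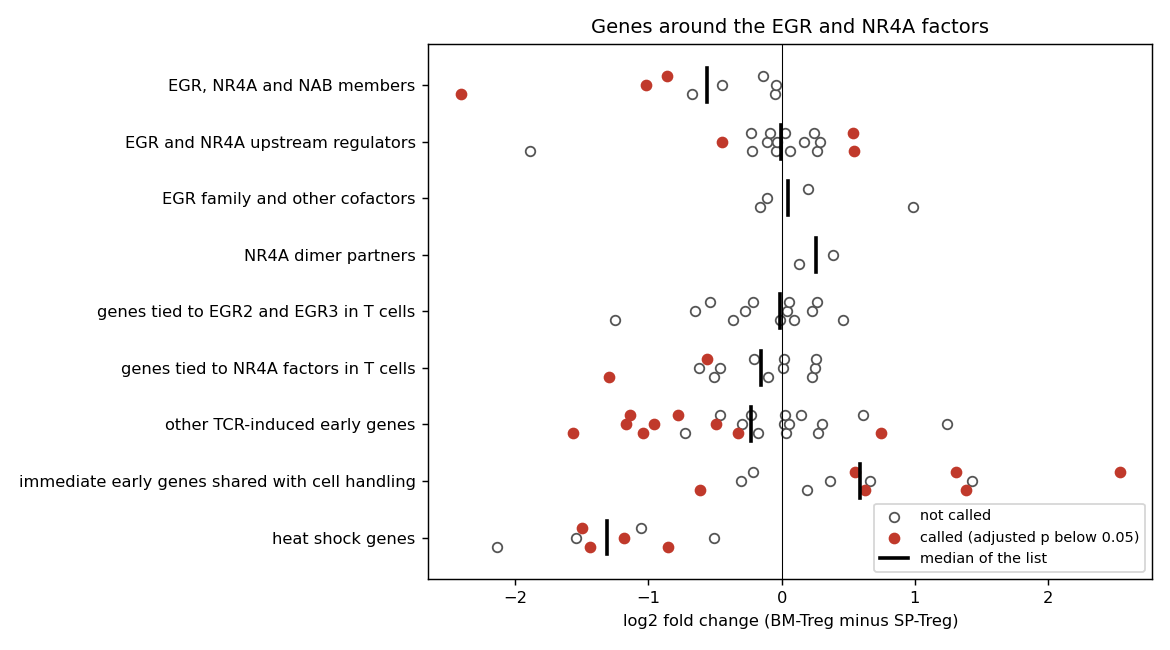
Log2 fold change (BM-Treg minus SP-Treg, horizontal axis) of each tested gene in the member set and in 8 lists of related genes, with called genes filled in red and the median of each list as a black bar. Called genes lie mostly below 0 among TCR-induced early genes (8 of 9) and heat shock genes (4 of 4), and mostly above 0 among immediate early genes shared with cell handling (5 of 6).

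Markers of other cells were low in most libraries but were not equal between them. The summed expression of 6 B cell genes was 13.5 to 18.5 CPM in BM-Treg and 13.1 to 137 CPM in SP-Treg, highest in SP-Treg replicate 2. Without that library the log2 fold changes of Egr1 and Egr2 were -0.98 and -2.31 (edgeR adjusted p = 0.0111 and 0.00379). The 8 neutrophil genes summed to 1.35 to 10.1 CPM in BM-Treg and 0.22 to 17.5 CPM in SP-Treg. The 5 erythroid genes listed of 7 summed to 4.92 to 9.55 CPM in BM-Treg and to 1.16 CPM in SP-Treg replicate 1. Every other SP-Treg library lay above all BM-Treg, with erythroid sums of 61.4, 128 and 77.9 CPM (replicates 2 to 4). The 5 monocyte and macrophage genes listed of 6 summed to 157 to 272 CPM in BM-Treg and 103 to 179 CPM in SP-Treg, most of it Ccr2, which Treg also express. The plasma cell list (4 of 6 genes listed) summed to 460 to 658 and 580 to 868 CPM, most of it Prdm1 and Irf4, which Treg express, and the plasmacytoid dendritic cell list to 65.5 to 68.5 and 37.2 to 79.1 CPM. No list had a marker at 0 in every library of a tissue. The part of such cells in the results for the members was not tested, and in bulk RNA fewer cells that express a gene and less RNA per cell cannot be told apart.

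For Egr2 and Egr1, the 3 genes with the most similar profile over the 8 libraries were found among the other 13396 tested genes, by the root mean square (RMS) difference of log2 CPM centred on each gene's mean. The profile of Egr2 was closest to those of Npas4 (RMS difference 0.33, log2 fold change -1.95), Setbp1 (0.35 and -1.86) and Gna14 (0.37 and -1.81). That of Egr1 was closest to Mcoln3 (0.15 and -1.02), Creld2 (0.17 and -0.89) and Sh3bp2 (0.18 and -0.99). None of these was another member. All of these profiles share the same 8 libraries and the difference between the tissues.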

How the data were processed

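RNA from sorted FoxP3+ cells was amplified by the single primer isothermal method (NuGEN), and 80 nt reads were sequenced from a single end. For genes and transcripts, the authors deposited expected counts (reads estimated by a model) and FPKM, those counts scaled by effective length and depth. The submitters' processing notes list cutadapt 1.9, STAR 2.5.2a, RSEM 1.2.30 and GRCm38. The annotation release and the use of strand are not given in the sources used here.

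Rounded expected counts were scaled by TMM, and edgeR's quasi-likelihood test was applied (robust, default filter, no covariate) with Benjamini-Hochberg adjustment over all genes and a threshold of 0.05. The versions were DESeq2 1.42.0, limma 3.58.1, edgeR 4.0.16 and R 4.3.3. The script was tested on simulated data. CPM use TMM library sizes, and log2 CPM a prior count of 2. FPKM were tested on log2(FPKM + 1) or log2(FPKM + 0.1) for genes with a mean FPKM of at least 0.1. Each SD is the spread among libraries, and the cDNA carried no molecular identifiers. Each SE was calculated from the log2 fold change and the F statistic of edgeR's test.

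Alternatives were DESeq2's size factors or test, limma-voom, FPKM, other filters, a batch term, batch 3 alone, a replicate block, and each library left out. The members and lists were chosen with earlier results of these data known. Genes named are the members, up to 2 called genes per list and direction by adjusted p, and the 3 nearest profiles of each called member (those of Egr3 are not reported here), and some uncalled list genes were named as examples after their values were seen. All 8 libraries were used, and 0 columns were left without a sample.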

Additional observations from a re-analysis of the deposited data

Results flagged for a closer look

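Dixon's test was run on 28 groups of 4 libraries, for the CPM of each member and for the share of its leading transcript in each tissue. Chance sets off about 1 in 20 such groups, and 1 group was found. In BM-Treg replicate 3 the leading Egr2 transcript, Egr2-201, held 48.9% of the Egr2 expected counts, far below 63.1% to 64.2% in the other BM-Treg libraries. The SP-Treg libraries lay between 54.9% and 65.1%.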

How the results depend on the processing

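Of the 8 members, 3 were called over all libraries, 5 by DESeq2 and 1 with batch as a term, and 2 to 4 with each library left out. Without BM-Treg replicate 3, all BM-Treg lay below all SP-Treg for 5 members instead of 3 (3 to 5 over the libraries left out). With the same CPM, leaving out a library cannot lower this number. The share over all genes is not given here for the reduced sets. The number of genes called, 1172 of 13397 tested, became 258 with batch as a term and 427 at an adjusted p threshold of 0.01. It was 413 on log2(FPKM + 1) and 489 on log2(FPKM + 0.1), by limma-trend and of 18174 genes tested. With each library left out it was 690 to 1048, fewest without BM-Treg replicate 2. The list genes called fell from 24 to 7 with batch as a term. The batch term rests on BM-Treg replicate 4 alone as the BM-Treg of batch 3, and the cause of the other shifts was not tested.

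Signs changed only for uncalled members. With each library left out, the log2 fold change of Nr4a1 was between -0.37 and 0.042 (above 0 only without BM-Treg replicate 1). That of Nr4a2 was between -0.39 and 0.23 (above 0 without BM-Treg replicate 1 or 2 or SP-Treg replicate 3 or 4), and became 0.068 with batch as a term. That of Nab2 was between -0.14 and 0.015 (above 0 only without BM-Treg replicate 1), and became 0.022 on log2(FPKM + 1) and 0.0225 on log2(FPKM + 0.1).

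Replicate numbers did not pair the samples: the correlation of same-numbered deviations was -0.11, 0.06, -0.18 and 0.04. With the replicate number as a block, 948 genes were called, and Egr1, Egr2 and Egr3 remained the members called. Depth limits Egr3 most, at 34 expected counts in BM-Treg replicate 4.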
